A study of Mus musculus with 13 samples.

Results

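The cytosolic ribosomal protein genes were measured in mouse microglia, the resident macrophages of the brain. They were taken as the rows whose symbols start with Rpl or Rps and a number, with Rplp0, Rplp1, Rplp2 and Rpsa, leaving out the ribosomal S6 kinases and pseudogene symbols, at a mean of at least 1 FPKM (fragments per kilobase, corrected for library size) over 13 libraries. The rule found 83 genes among 19737 in the table, of which 10817 reached the same minimum and were tested. It matched 87 symbols, and Rpl39l, Rpl3l, Rps23rg1 and Rpl10l fell under the minimum, with means of 0.220, 0.0148, 0.00884 and 0.00158 FPKM. Just inside it were Rps13 at 1.49, Rpl27 at 1.95 and Rpl28 at 2.50 FPKM. The minimum for a test was the same as for membership, so all 83 members were tested. By symbol, 49 belong to the large (60S) subunit and 34 to the small (40S) subunit. The canonical subunit proteins number 77. The other 6 are the paralogs Rpl22l1, Rpl36al, Rpl7l1, Rps27l and Rps27rt and the binding protein Rps19bp1.

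The libraries fall into 4 groups. EGFP in an AAV PHP.eB vector (an adeno-associated virus that reaches the brain) was given to wild type mice (n = 3) and to 5xFAD mice (n = 2). The 5xFAD mouse carries human amyloid precursor protein and presenilin transgenes with familial Alzheimer's disease mutations, driven by a neuronal promoter. In a further group, 5xFAD mice (n = 4) received circPOLR2A, a circular RNA, in the same type of vector, and are called circRNA libraries here. Their construct labels read (9,10), (9,11), (9,12) and (9,13) for replicates 1 to 4, so they may not all carry 1 construct. The last group is 5xFAD with knockout of PKR (n = 4), the double-stranded RNA-activated kinase encoded by Eif2ak2, for which the labels name no vector. Only these libraries carry library names in the labels, so a separate library batch, the knockout and the unnamed vector cannot be told apart. The labels used here give no age or sex and no method of cell isolation, and do not say whether replicates are separate animals, so p-values measure the spread between these libraries, which may be technical.

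A ribosome is built from ribosomal RNA and a fixed set of proteins in each subunit, which are made in matched amounts. Their mRNAs are among the most abundant in most cells, and many begin with a 5′ terminal oligopyrimidine (TOP) tract, a C followed by a run of pyrimidines, through which mTORC1 and LARP1 control their translation. The RNA level measured here is not the translation rate. In bulk samples, fewer cells of a type and less RNA per cell cannot be told apart.

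The TOP tract is the sequence feature that the family is known for, and the windows below show it in members with and without it. Each is 30 bases, 15 before the RefSeq gene start and 15 from it (GRCm38.p6, gene strand, 5′ to 3′). Capitals mark the longest pyrimidine run of at least 5 bases that opens with C and begins within 10 bases of the start. Rps6, Rpl38, Rps18, Rplp2, Rpl35 and Rpl14 have such a run over the annotated start, as do Rpl28 and Rps10. Rps27 and Rps27rt are shown as parent and retrocopy. Rpl23, Rplp0, Rps4x, Rpl7l1 and Rps19bp1 are shown as members without a run. Both kinds hold members that were higher in 5xFAD with EGFP than in wild type and members that did not pass. Of those with a run, Rpl28, Rps10 and Rps27 did not pass, and of those without, Rpl23, Rplp0 and Rps4x did.
Rps6: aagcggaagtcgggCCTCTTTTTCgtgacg
Rpl38: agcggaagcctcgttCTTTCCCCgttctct
Rps18: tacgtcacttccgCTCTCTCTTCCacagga
Rplp2: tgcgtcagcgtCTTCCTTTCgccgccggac
Rpl35: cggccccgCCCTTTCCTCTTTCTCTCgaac
Rpl14: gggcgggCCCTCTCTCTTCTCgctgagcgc
Rpl28: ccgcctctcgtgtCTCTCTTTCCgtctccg
Rps10: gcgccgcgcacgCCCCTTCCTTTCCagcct
Rps27: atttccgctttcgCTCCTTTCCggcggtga
Rps27rt: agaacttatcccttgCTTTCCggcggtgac
Rpl23: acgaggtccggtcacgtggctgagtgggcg
Rplp0: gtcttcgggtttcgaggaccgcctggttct
Rps4x: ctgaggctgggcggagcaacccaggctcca
Rpl7l1: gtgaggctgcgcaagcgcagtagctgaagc
Rps19bp1: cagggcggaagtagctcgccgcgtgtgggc
These windows lie at chr4:86857353-86857382 (Rps6, minus strand), chr11:114668565-114668594 (Rpl38, plus) and chr17:33955651-33955680 (Rps18, minus). Those of Rplp2, Rpl35 and Rpl14 lie at chr7:141447636-141447665 (plus), chr2:39005117-39005146 (minus) and chr9:120571502-120571531 (plus). Rpl28 and Rps10 lie at chr7:4792950-4792979 (plus) and chr17:27635230-27635259 (minus). Rpl23, Rplp0 and Rps4x lie at chr11:97782425-97782454 (minus), chr5:115559452-115559481 (plus) and chrX:102189377-102189406 (minus). Rps27 and Rps27rt lie at chr3:90213634-90213663 and chr9:114982725-114982754, both on the minus strand. Rpl7l1 lies at chr17:46782642-46782671 and Rps19bp1 at chr15:80264292-80264321, both on the minus strand.

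RefSeq promoter sequence was matched for 63 of the 83 members. A C with at least 4 pyrimidines after it stood at the annotated start in 13 of the 63 (20.6%), against 2.48% of 27025 promoters and 2.32% of the 8567 tested genes with a promoter. A run of at least 7 pyrimidines opening with C within 10 bases of the start stood in 25 members (39.7%), against 12.2% of all promoters and 12.7% of tested genes. These were searched on the gene strand only, in any mix of C and T, and runs may overlap both definitions. In the large subunit 6 of 37 matched members had the first feature, and in the small subunit 7 of 26. In 5xFAD with EGFP against wild type, 10 of the 13 members with the first feature passed limma's test (median log2 change 0.78) and 37 of the 50 without it (0.71). For the longer run the counts were 19 of 25 (0.71) and 28 of 38 (0.73). Of all tested genes, 7.65% were called higher in this comparison. Members with and without these letters passed, and no test of a difference was made. An annotated start can lie some bases from the start used in microglia, so a window without the run says only that these letters are not there.

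Recovered depth ranged from 45.2 to 70.0 M (mega) fragments and was highest in the PKR knockout group (64.4 ± 5.86 M, SD, n = 4). Summed microglial marker genes ranged from 3666 to 7506 FPKM, with none of the 10 at 0 in any library. Wild type replicate 3 stood apart, with 3666 FPKM of microglial markers and 1580 FPKM of 6 oligodendrocyte markers, against 352 to 392 FPKM of the latter in the other wild type libraries. In 5xFAD, oligodendrocyte markers were at 636 and 680 FPKM with EGFP, 306 to 786 with circRNA and 225 to 375 with PKR knockout. Endothelial and mural markers were higher in wild type (72.8 to 160 FPKM) than in most 5xFAD libraries (30.6 to 76.1), and border macrophage and monocyte markers were higher in all (27.6 to 42.5 against 11.1 to 20.2). In limma, 5 of 7 and 4 of 4 tested genes of these lists were lower in 5xFAD with EGFP than in wild type. Listed values of 0 occurred among lymphocyte genes and in no other list. Their part in the results below was not tested, except by leaving out wild type replicate 3. Eif2ak2, the gene targeted in the knockout, read 3.35, 4.61, 3.31 and 4.16 FPKM in those libraries and 6.49 and 6.59 in 5xFAD with EGFP, against 5.18, 5.23 and 4.14 in wild type. The labels do not say which part was deleted, and transcript outside it can remain, so this level does not check the label.

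Summed over the members, ribosomal protein transcripts were higher in every 5xFAD library than in every wild type library. The sums were 2719, 2605 and 2747 FPKM in wild type. They were 5244 and 4464 in 5xFAD with EGFP, 5425, 5908, 6779.8 and 4860.0 with circRNA and 6145, 5735, 4959 and 5962 with PKR knockout. The highest wild type library lay well below the lowest 5xFAD library, and the 3 groups of 5xFAD libraries overlapped. Group means were 2690 ± 75.6 (SD, n = 3), 4854 ± 551 (n = 2), 5743 ± 813 (n = 4) and 5700.0 ± 522 FPKM (n = 4). Relative to wild type these are 1.80, 2.13 and 2.12 times. A sum is led by its most abundant members, and Rplp1, Rps27rt, Rps15, Rps3a1 and Rpl41 were the highest, at means of 355, 306, 253, 202 and 202 FPKM.

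The sums of both subunits were higher in 5xFAD libraries. Large subunit sums averaged 1479 FPKM in wild type and 2659, 3133 and 3103 in the 5xFAD groups in the same order. Small subunit sums averaged 1211 FPKM and then 2195, 2610 and 2597. The ratio of small to large was 0.819 ± 0.018 in wild type (SD, n = 3), 0.827 ± 0.024 in 5xFAD with EGFP (n = 2), 0.834 ± 0.016 with circRNA (n = 4) and 0.836 ± 0.023 with PKR knockout (n = 4). Single libraries ran from 0.802 to 0.864, and the groups overlapped on this ratio.

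**Figure D1:**
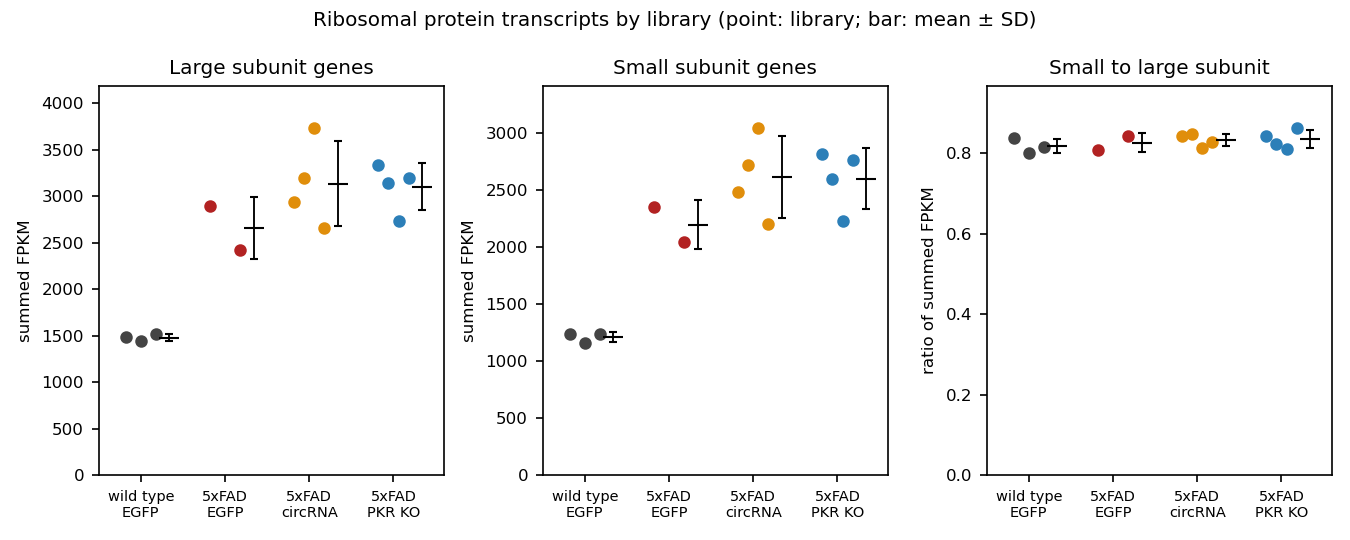
Summed FPKM of the 49 large and 34 small subunit genes and their ratio, with 1 point a library and bars for mean ± SD in each group. All 10 5xFAD libraries lie above the 3 wild type libraries in both sums, and the ratio runs from 0.802 to 0.864 over all libraries.

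In 5xFAD microglia with EGFP, most ribosomal protein genes were more abundant than in wild type microglia with EGFP. Of 83 members, 63 passed limma's test at an adjusted p of 0.05, all of them higher, in a comparison that called 14.0% of all tested genes (7.65% higher). The median change of the members was 0.74 on the log2(FPKM + 1) scale, or 1.67 times, against -0.03 over all tested genes. The range was -0.07 to 1.52. Large subunit members passed in 39 of 49 (median 0.74) and small subunit members in 24 of 34 (median 0.73). Leaving out 5xFAD EGFP replicate 1 gave 20 members (24.1%, beside 6.16% of all tested genes in that fit) and a median of 0.62. Leaving out replicate 2 gave 47 (56.6%, beside 5.23%) and a median of 0.87. Each of these fits leaves 1 library in the group, which is assumed to vary like the other groups. When only these 2 groups were fitted, 23 passed (27.7%, beside 4.71% of all genes) at the same median of 0.74, and without wild type replicate 3 the count was 63 (beside 18.5%). Of 19 named members that passed and were refitted, Rpl19 and Rpl21 were named because their changes here were among the 3 most positive. Under 14 alternatives, Rpl3, Rpl19, Rpl21 and Rpl22 passed in all of them. The other 15 did not pass in at least 1, among them 14 in the fit of 2 groups and 14 without 5xFAD EGFP replicate 1.

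**Figure D2:**
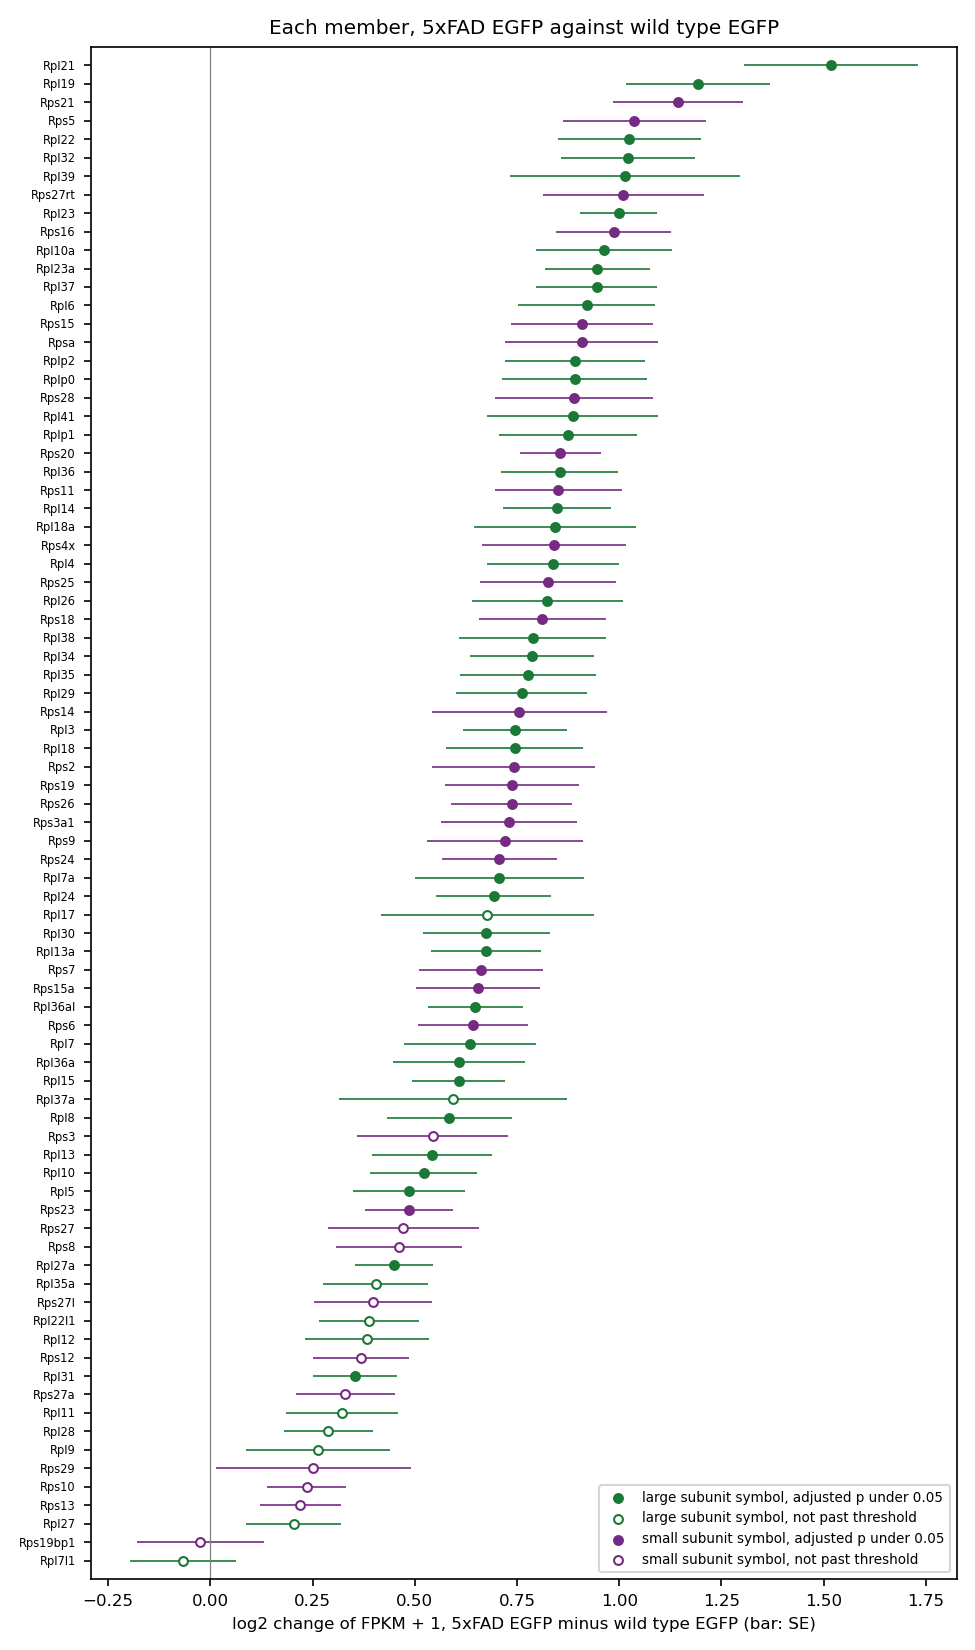
Of the 83 members, 82 by log2 change of FPKM + 1 between 5xFAD and wild type with EGFP, with bars for the standard error, green for large and purple for small subunit symbols, and filled points for those that passed. Changes run from -0.07 (Rpl7l1) to 1.52 (Rpl21), with 62 filled points.

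Rpl21 and Rpl19, which encode structural proteins of the large subunit, were among the members with the largest changes. Rpl21 (chr5:146832890-146837032, plus strand) was at 11.1, 9.58 and 8.68 FPKM in wild type, 24.9 and 35.5 in 5xFAD with EGFP, 42.4, 42.9, 41.3 and 36.7 with circRNA and 40.5, 42.9, 32.9 and 60.5 with PKR knockout. No wild type library reached any 5xFAD library, and the change in 5xFAD with EGFP was 1.52 (SE 0.21, adjusted p = 0.000593) by limma. Rpl19 (chr11:98026710-98030492, plus strand) was at 15.9, 17.0 and 18.3 FPKM in wild type and 40.0 and 40.6 in 5xFAD with EGFP, again without overlap, a change of 1.19 (SE 0.18, adjusted p = 0.000919).

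The stalk of the large subunit, made of Rplp0 with the acidic proteins Rplp1 and Rplp2, recruits elongation factors. Rplp0 was at 103, 105 and 99.8 FPKM in wild type and 215 and 170.4 in 5xFAD with EGFP, Rplp1 at 179, 195 and 228 against 392 and 344, and Rplp2 at 14.8, 18.3 and 16.9 against 35.7 and 28.0. The groups did not overlap for any of the 3, and all passed by limma, at 0.89 (adjusted p = 0.00585), 0.87 (adjusted p = 0.00476) and 0.89 (adjusted p = 0.00464). Without 5xFAD EGFP replicate 1 none of the 3 passed (limma, adjusted p = 0.0823, 0.0988 and 0.0687).

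Of the small subunit proteins, Rps6, the substrate of the S6 kinases, was at 14.7, 13.6 and 13.7 FPKM in wild type and 25.4 and 19.8 in 5xFAD with EGFP. The change was 0.64 (SE 0.14, adjusted p = 0.00796) by limma, and the libraries of the groups did not overlap. It did not pass without 5xFAD EGFP replicate 1 (0.47, adjusted p = 0.112 in limma) or when only the 2 groups were fitted (adjusted p = 0.0671). Rpsa, also known as the laminin receptor, rose by 0.91 (adjusted p = 0.00724), Rps4x, an X-linked gene, by 0.84 (adjusted p = 0.0079) and Rps19, needed to mature the small subunit, by 0.74 (adjusted p = 0.0106), all in limma. Rps3, which bounds the mRNA entry channel, was at 34.2, 37.0 and 44.2 FPKM in wild type and 63.7 and 49.7 in 5xFAD with EGFP and did not pass, at 0.54 (adjusted p = 0.0735) in limma.

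Of the large subunit proteins, Rpl3 of the peptidyl transferase centre changed by 0.75 (limma, adjusted p = 0.00238), Rpl10, which helps the subunits join, by 0.52 (adjusted p = 0.0188) and Rpl38, a member with selective roles in Hox mRNA translation, by 0.79 (adjusted p = 0.0121). Rpl13a, part of the GAIT complex that restrains inflammatory mRNAs, changed by 0.67 (adjusted p = 0.00578) and Rpl22 by 1.02 (adjusted p = 0.00238) in limma. Rpl10, Rpl38 and Rpl13a did not pass when only the 2 groups were fitted, and Rpl10 also did not with the replicate block. Rpl5 and Rpl11 hold Mdm2 off p53 when ribosome assembly fails. Rpl5 was at 6.04, 6.44 and 5.22 FPKM in wild type and 8.90 and 8.38 in 5xFAD with EGFP, and passed at 0.49 (adjusted p = 0.0336) in limma, but not in 7 of 14 alternatives, where adjusted p ran from 0.0601 to 0.186. These were the fits without either 5xFAD EGFP library, without wild type replicate 1 or 3, with only 2 groups, with the replicate block and with no filter on low values. Rpl11 was at 3.47, 4.85 and 3.79 and 5.88 and 4.69, with the lowest 5xFAD value inside the wild type range, and did not pass, at 0.32 (adjusted p = 0.158) in limma. With 1 library left out, the change of Rpl11 ran from 0.184 to 0.460.

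The paralogs and the binding protein did not follow one pattern. Of the 6, Rpl36al (0.65, adjusted p = 0.00326 in limma) and Rps27rt (1.01, adjusted p = 0.00521) passed between 5xFAD with EGFP and wild type, and the median was 0.39, against 61 of 77 canonical members passing with a median of 0.74. All of the 6 but Rps27rt had means under 10 FPKM. Of all members under 10 FPKM, 7 of 22 passed with a median of 0.37, so level and class are not separated here. Rpl22l1, paralog of Rpl22, was at 0.39 (adjusted p = 0.0535) in limma and did not pass. Rpl7l1 was at 10.7, 10.0 and 7.39 FPKM in wild type, 8.88 and 8.70 in 5xFAD with EGFP, 9.21, 9.34, 10.6 and 8.13 with circRNA and 9.02, 8.70, 8.80 and 8.16 with PKR knockout, overlapping in every group. Its change in 5xFAD with EGFP was -0.07 (SE 0.13, adjusted p = 0.796) by limma, while that of its paralog Rpl7 was 0.63 (adjusted p = 0.0207). With columns rescaled to the same sum, Rpl7l1 was -0.26 with circRNA and -0.30 with PKR knockout against wild type, and passed as lower in both (limma, adjusted p = 0.0343 and 0.0165). Rps19bp1, a regulator of Sirt1, was at -0.02 (adjusted p = 0.946) and did not pass.

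By level, in 5xFAD with EGFP against wild type, 27 of 28 members at a mean of at least 50 FPKM passed (median 0.84), 29 of 33 between 10 and 50 FPKM (median 0.78) and 7 of 22 below 10 FPKM (median 0.37). Over all tested genes, 7.65% were called higher. The share among other genes at each of these levels was not taken, so the trend with level is not particular to the members. The log2(FPKM + 1) scale understates changes of low genes. The lowest members were Rps13 at 1.15, 1.28 and 1.05 FPKM in wild type and 1.55 and 1.47 in 5xFAD with EGFP, and Rpl27 at 1.05 to 1.71 and at 1.67 and 1.86. Neither passed in limma, at 0.22 (adjusted p = 0.181) and 0.20 (adjusted p = 0.302). With 1 library left out, the change of Rpl27 ran from 0.0893 to 0.290.

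Between circRNA or PKR knockout 5xFAD libraries and wild type, nearly every member was higher. These comparisons share the wild type libraries with the one above. With circRNA, 78 of 83 passed in limma, all higher, beside 25.8% of all tested genes called (17.8% higher), with a median of 0.96 against 0.02 over all genes. With PKR knockout, 76 passed, all higher, beside 37.0% called (17.5% higher), with a median of 0.92 against -0.05. Without wild type replicate 3 the counts were 78 and 74, beside 23.8% and 35.0% of all genes. Large and small subunit medians were 0.96 and 0.99 with circRNA, and 0.92 and 0.92 with PKR knockout. Rpl21 changed most, by 1.96 (adjusted p = 7.97e-06) and 2.04 (adjusted p = 4.16e-06) in limma.

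Across all 10 5xFAD libraries together, 73 of the 83 members (43 large, 30 small) lay above all 3 wild type libraries, as did 12.7% of all tested genes. The 10 that did not were Rpl11, Rpl27, Rpl37a, Rpl39, Rpl7l1, Rpl9, Rps13, Rps19bp1, Rps27l and Rps29. Of these, Rps29 was among the low-level genes, at 0.25 (adjusted p = 0.555) for 5xFAD with EGFP against wild type in limma.

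**Figure D3:**
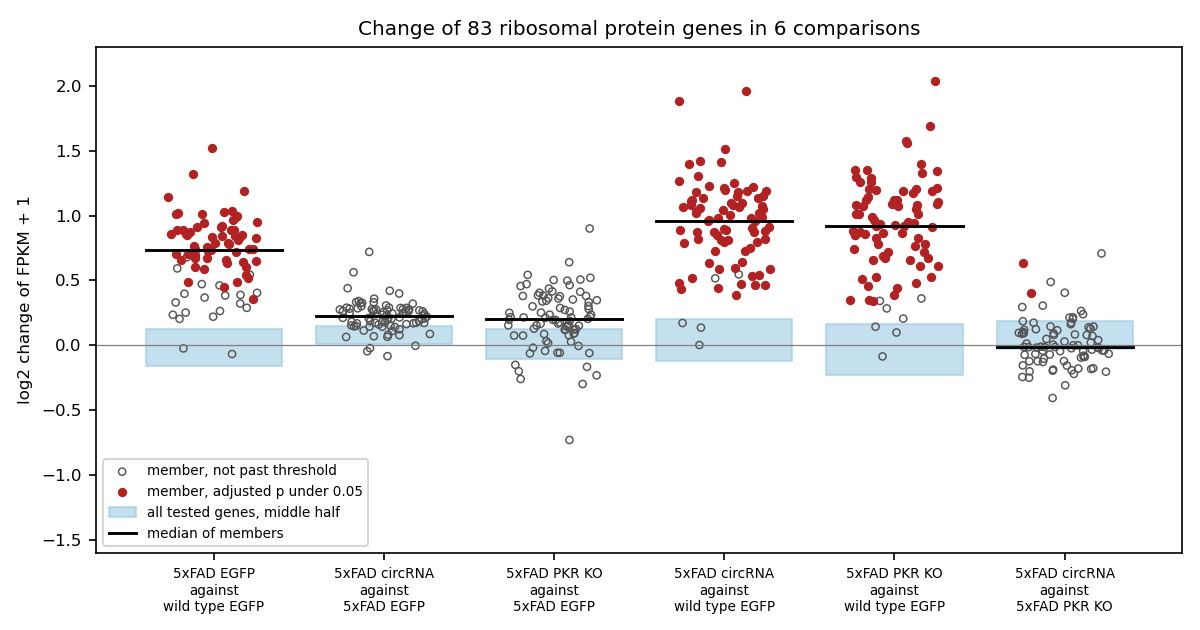
Log2 change of FPKM + 1 for each of the 83 members in 6 comparisons, with a line at the members' median, filled points for those past an adjusted p of 0.05 and a blue band from the lower to the upper quartile of all tested genes. Against wild type, the medians are 0.74, 0.96 and 0.92, with 63, 78 and 76 filled points. Between 5xFAD groups, 0, 0 and 2 are filled.

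Among the 5xFAD groups the members did not pass, with 2 exceptions. In circRNA against EGFP, 0 of 83 members passed in limma, beside 0.0% of all tested genes. At an unadjusted p under 0.05, 15 were higher and 0 lower, beside 4.83% of all genes (4.54% higher). Voom on recovered fragments also called 0. The median was 0.23, and from 0.12 (without 5xFAD EGFP replicate 2) to 0.31 (without its replicate 1) with 1 library left out, with 0.14 without circRNA replicate 3. It was 0.12 to 0.14 under median-ratio and same-sum scaling, voom, and the block with trends removed. Of the members 79 were positive, as were 77.7% of all genes, and the smallest adjusted p in limma was 0.739. In PKR knockout against EGFP, 0 passed, beside 0.0832% of all genes. Voom on recovered fragments called 0 here as well. There 25 were higher and 3 lower at an unadjusted p under 0.05, beside 13.0% of all genes (7.41% higher), with a median of 0.20 and a smallest adjusted p of 0.181 in limma. The median was 0.14 without 5xFAD EGFP replicate 2 and 0.29 without replicate 1. When only these 2 groups were fitted, 5 passed (6.02%, 4 higher and 1 lower), beside 5.33% of all tested genes in that fit, a share near the background. Cell type markers also differed in level against EGFP. Summed microglial markers were at 6188 to 6372 FPKM with PKR knockout, 4967 to 7506 with circRNA and 5113 and 5639 with EGFP. With PKR knockout, 5 of the 10 genes read higher and 1 lower without overlap (median change 0.23). With circRNA, all 10 had positive changes (median 0.18), 1 of them without overlap. None of the 10 passed in limma in either comparison. All 6 oligodendrocyte and all 4 tested neuron markers read lower in every PKR knockout library than in both EGFP libraries, with median changes of -1.40 and -0.66, and none passed in limma (4 and 2 lower at an unadjusted p under 0.05). The sum of mitochondrially encoded transcripts was 10124 to 16545 FPKM with PKR knockout and 19589 and 18740 with EGFP, also without overlap, and 14189 to 21441 with circRNA. With circRNA, all 4 neuron markers (median -0.65, 2 without overlap) and all 6 oligodendrocyte markers (median -0.53, with overlap) had negative changes and all 7 endothelial and mural markers positive ones (median 0.39, 3 without overlap). None of these passed in limma, and 0 were at an unadjusted p under 0.05. The part of these values in the members' results was not tested. Rpl17 had the most positive change in both, 0.72 with circRNA and 0.90 (adjusted p = 0.204) with PKR knockout in limma, from 6.62 and 9.33 FPKM with EGFP. It was at 12.4, 11.2, 14.6 and 16.9 with circRNA and 13.4, 16.0, 11.1 and 24.4 with PKR knockout, all above both EGFP libraries. Rpl6 was at 66.3 and 55.5 FPKM with EGFP and 103, 98.3, 84.0 and 96.2 with PKR knockout, without overlap, a change of 0.64 (adjusted p = 0.181) in limma, and Rpl13 followed at 0.54 (adjusted p = 0.181). The lowest changes with PKR knockout were Rpl39 (-0.73, adjusted p = 0.273 in limma), Rps27l (-0.30, adjusted p = 0.383) and Rpl15 (-0.26, adjusted p = 0.343). With circRNA, Rpl21 was at 0.44 (adjusted p = 0.739) in limma (0.19 without 5xFAD EGFP replicate 1 and 0.69 without replicate 2), and the lowest were Rps13, Rpl37a and Rpl39, at -0.08, -0.05 and -0.02. The last changed sign with the replicate block. A p that misses the threshold does not show that these groups are alike.

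Between circRNA and PKR knockout, Rps27l and Rpl15 passed, both higher with circRNA. They are 2.41% of the members, below the 6.19% of all tested genes called (4.28% higher). All 6 oligodendrocyte markers (median 0.87) and 5 of 6 astrocyte markers (median 0.44) also had positive changes here, with overlap between the groups. None passed in limma (4 and 2 at an unadjusted p under 0.05), and their part in the result was not tested. Rps27l, a paralog of Rps27 known as a p53 target, was at 10.8, 10.9, 11.1 and 8.52 FPKM with circRNA and 6.16, 5.55, 6.30 and 7.21 with PKR knockout. It was at 7.11, 5.68 and 4.81 in wild type and 8.32 and 7.61 in 5xFAD with EGFP, and the knockout libraries overlapped wild type. The change was 0.63 (SE 0.11, adjusted p = 0.011) by limma. Rpl15, a large subunit protein, was at 19.3, 19.8, 21.4 and 15.6 FPKM with circRNA and 13.8, 14.5, 13.3 and 14.7 with PKR knockout. No knockout library reached a circRNA library, and the change was 0.40 (SE 0.09, adjusted p = 0.0244) by limma. Without any one of circRNA replicates 1 to 3 or PKR knockout replicates 1 to 3 it did not pass, with adjusted p from 0.0527 to 0.0754 in limma, and with length and GC trends removed in a fit that also used the replicate block, adjusted p was 0.152. Rps27l passed under each of the alternatives run.

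Rpl39 did not pass between circRNA and PKR knockout in the fit used throughout. Over 17 alternatives its adjusted p in limma ran from 0.0170 to 0.176, so it passed in some. Rpl39, a short protein that lines the exit tunnel of the large subunit, was at 24.9, 16.7 and 9.40 FPKM in wild type, 33.5 and 32.5 in 5xFAD with EGFP, 40.9, 32.7, 28.4 and 29.3 with circRNA and 21.6, 20.4, 17.3 and 18.9 with PKR knockout. The knockout libraries overlapped wild type, and circRNA against PKR knockout was 0.71 (adjusted p = 0.0718) in limma. At the other end of this comparison, Rps27 was at 5.93, 4.33, 4.67 and 3.15 FPKM with circRNA and 6.74, 6.16, 5.19 and 6.79 with PKR knockout, with overlap, a change of -0.41 (adjusted p = 0.102) in limma. Rpl6 (-0.31, adjusted p = 0.16) and Rps13 (-0.25, adjusted p = 0.0718) were the next lowest in limma. Over the same alternatives, adjusted p in limma ran from 0.0295 to 0.314 for Rpl6 and from 0.0186 to 0.187 for Rps13.

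**Figure D4:**
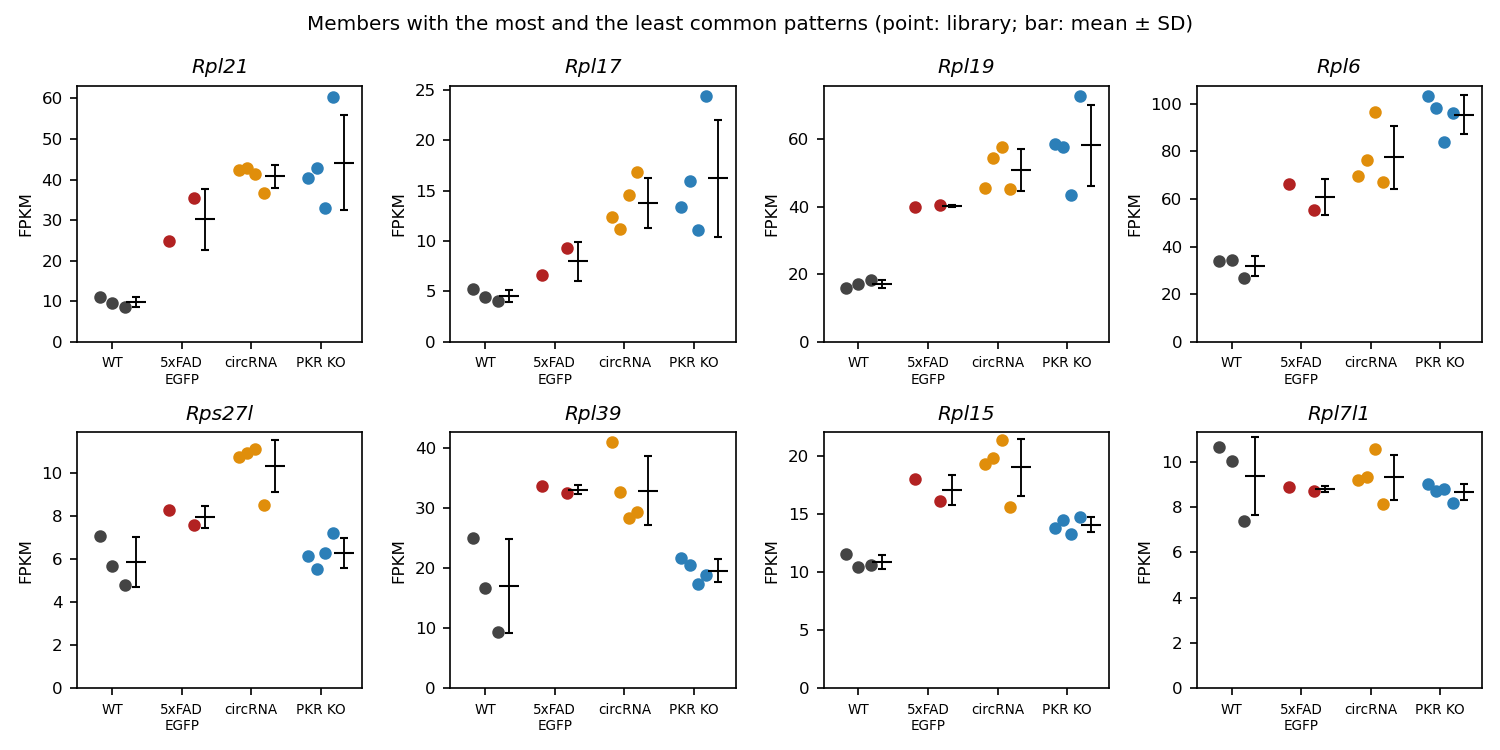
FPKM of Rpl21, Rpl17, Rpl19, Rpl6, Rps27l, Rpl39, Rpl15 and Rpl7l1 in each library, with bars for mean ± SD. Rps27l with PKR knockout lies at 5.55 to 7.21 FPKM, inside or near the wild type range, and Rpl7l1 overlaps in all groups.

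Fau and most elongation and TOP factors also rose. Fau, which encodes a ubiquitin-like fusion with a small subunit protein, was at 103, 108 and 84.9 FPKM in wild type and 210.0 and 153 in 5xFAD with EGFP. The groups did not overlap, and it passed in limma, at 0.86 (adjusted p = 0.0253). Elongation and TOP factors passed in 15 of 19 in that comparison, 17 of 19 with circRNA and 16 of 19 with PKR knockout, with medians of 0.64, 0.89 and 0.79, all of those that passed being higher. Of all tested genes, 7.65%, 17.8% and 17.5% were called higher in these comparisons. Of these factors, Rack1, a small subunit scaffold, was at 21.3, 21.2 and 19.2 FPKM in wild type and 43.2 and 37.7 in 5xFAD with EGFP, and Eef1a1, the factor that delivers tRNA, changed by 1.07 (adjusted p = 0.00417) in limma.

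Genes that build or control ribosomes were counted the same way. Of 25 biogenesis factors, 0 passed in limma in 5xFAD with EGFP against wild type (2 higher and 0 lower at an unadjusted p under 0.05), 9 rose with circRNA and 9 rose with PKR knockout, with 1 lower in the last. The shares of all tested genes called higher were 7.65%, 17.8% and 17.5% in these 3 comparisons with wild type, and 687, 871 and 2099 of 10817 were called lower. Of 15 regulators of TOP translation and mTORC1, 0 rose and 1 fell in 5xFAD with EGFP, 2 rose and 2 fell with circRNA, and 2 rose and 3 fell with PKR knockout. Larp1, which binds the TOP tract, was at 0.24 (adjusted p = 0.124) for EGFP in limma and did not pass. Of 14 genes of eIF2 and its kinases, 1 rose in 5xFAD with EGFP, 4 rose with circRNA, and 2 rose and 2 fell with PKR knockout. Of 75 mitochondrial ribosomal proteins, which serve the separate ribosome of mitochondria, 1 rose (median 0.02). With circRNA 11 (14.7%) rose, and with PKR knockout 7 (9.33%) rose and 5 fell, both shares of higher genes being below those of all tested genes. Their median exon length was 2172 bases, near that of the members (1770) and below that of all tested genes (4481). For the elongation and TOP factors it was 3153 bases. These lists were not matched in level, and the part of length in the changes was not tested.

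Reads shared with near copies limit the level of single members. Of the 83, 38 had under 50% of their 50-base words unique to the gene, 36 from 50% to 90% and 9 at least 90%. The medians of the change in 5xFAD with EGFP were 0.68, 0.77 and 0.66 in that order. Rps27rt, a retrocopy of Rps27, had 8.92% unique words and a mean of 306 FPKM, while Rps27, with 36.9%, had 4.59 FPKM, so their separate levels are uncertain. Rpl21 shared words with 82 other genes. How the authors treated shared reads is not given in the sources used here.

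As a share of each library's column sum, members took 2.00, 2.11 and 2.17 percent in wild type. The shares were 3.47 and 3.21 in 5xFAD with EGFP, 3.47, 3.83, 3.97 and 3.27 with circRNA and 3.99, 3.86, 3.35 and 3.88 with PKR knockout, above wild type in all. The sum of all other genes was also higher in 5xFAD libraries, with means of 125886 FPKM in wild type and 140282, 151705 and 145396 in the other groups. Relative to wild type, the share was 1.59, 1.74 and 1.80 times. In recovered fragments it was 1.71, 1.88 and 1.94 times. Rescaled so that each column had the same sum, the members' medians against wild type were 0.57, 0.68 and 0.69, and the medians of all genes were -0.17, -0.20 and -0.24. Other values are on the scale as deposited unless another scaling is named beside them.

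**Figure D5:**
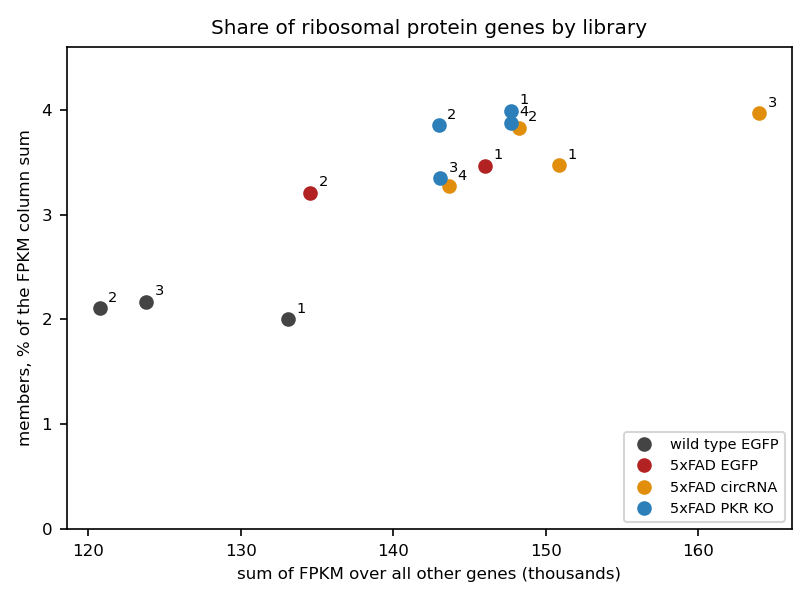
Members as a percent of the FPKM column sum against the sum of all other genes for each library numbered by replicate. Wild type lies at 2.00 to 2.17 percent and the 5xFAD libraries at 3.21 to 3.99 percent, with larger sums of other genes as well.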

How the data were processed

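RNA was extracted with TRIzol, depleted of ribosomal RNA with RiboMinus, made into stranded total RNA libraries and sequenced on a NovaSeq, per the labels' protocols. The submitters' processing notes name build mm10, Bowtie2 2.3.5, HISAT2 2.1.0 and featureCounts 1.5.1, with no role or order. The annotation and the treatment of shared reads are not given in the sources used here. The authors deposited 1 table of FPKM values for 13 libraries. FPKM is scaled to each library's total, so a large gene group can move others.

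Depth was recovered from 47180 low values with exon lengths from GENCODE M21 (GRCm38), of which 90.3% were whole fragments within 0.02. Testing covered genes averaging 1 FPKM or more, in limma 3.58.1 (R 4.3.3) on log2(FPKM + 1), all libraries in 1 model with a mean for each group and an intensity trend. P-values were Benjamini-Hochberg adjusted over 10817 genes within each of 6 comparisons, at a threshold of 0.05. The script was tested on simulated data. Alternatives were a pseudocount of 0.1, no filter, other scalings, fewer groups, a replicate block, length and GC trends, voom on recovered fragments and leaving out each library.

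Members, gene lists and named genes were chosen with earlier results of these data known. The text names a fixed panel, the 5 highest and 3 lowest members by mean FPKM, the 3 most positive and 3 most negative changes in each comparison, and members passing where 10 or fewer did. Others named, such as Rps3 and Rps29, were chosen after their values were seen. Genes hosting small nucleolar RNAs were not analysed here. Some genes that the rule named are counted in totals and not reported here by value.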

Additional observations from a re-analysis of the deposited data

Results flagged for a closer look

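In 11 of 172 sets of 4 libraries, the highest or lowest library lay far from the others by Dixon's criterion, which chance meets in about 1 in 20. Each set was 1 member or 1 library total in the circRNA or PKR knockout group, and sets share their libraries. With circRNA, replicate 3 was high for Rpl11 (7.90 FPKM, others 6.05 to 6.18), Rpl12 (8.30, others 5.86 to 6.24), Rpl14 (54.5, others 48.2 to 49.0) and Rps19 (28.7, others 20.6 to 21.2). Replicate 4 was low for Rpl38 (101.7, others 134.6 to 141.4) and Rps27l (8.52, others 10.8 to 11.1). With PKR knockout, replicate 3 was low for Rpl3 (35.4, others 42.8 to 43.8), Rpl23a (92.2, others 116.5 to 117.7), Rpl35 (47.7, others 55.3 to 55.8) and Rps20 (15.8, others 19.2 to 19.5), and replicate 2 was high for Rps13 (2.12, others 1.72 to 1.75). The members' summed FPKM was highest in circRNA replicate 3 and lowest of the circRNA libraries in replicate 4.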

How the results depend on the processing

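Members called against wild type were all higher in every alternative run, except 1 lower with circRNA and 1 lower with PKR knockout when columns were rescaled to the same sum (76 and 74 called, beside 52.5% and 61.0% of all tested genes), the latter also with members left out of the sum. In 5xFAD with EGFP, 23 members passed when only the 2 groups were fitted (beside 4.71% of all genes), and 20 to 63 when 1 library was left out (beside 5.23% to 18.5%). With circRNA the leave-one-out range was 76 to 80 (20.1% to 26.5%), and with PKR knockout 74 to 76 (28.7% to 35.6%). In PKR knockout against EGFP, 5 passed (4 higher, 1 lower) when only the 2 groups were fitted, beside 5.33% of all genes. In circRNA against PKR knockout, 4 members (4.82%) passed with median-ratio scaling (2 higher, 2 lower) and 4 with voom (3 higher, 1 lower), beside 8.70% and 9.40% of all genes. With 1 library left out, 1 to 4 passed (1.20% to 4.82%), beside 1.36% to 4.68%, so these counts were below or near the background. The cause was not tested.

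Replicate numbers shared between groups were not taken as pairing, since the labels name no shared source and correlations of same-numbered libraries ran from -0.42 to 0.69. Their mean exceeded that of differently numbered libraries in all 6 comparisons, from 0.0223 against -0.0204 (circRNA against wild type) to 0.328 against -0.109 (PKR knockout against EGFP). The correlations used deviations from group means, which sum to 0 in each group. The mean of differently numbered libraries is thereby pushed to the opposite sign. The 6 comparisons also share libraries, so they are not independent. The replicate block gave 59, 80 and 76 calls against wild type, 0 and 0 against EGFP and 3 between circRNA and PKR knockout, and with length and GC trends removed 63, 74, 75, 0, 0 and 2. The shares of all genes against wild type were 12.1%, 24.8% and 35.8%, then 15.3%, 27.8% and 37.7%. Between circRNA and PKR knockout, the fit without a block called 6.19% of all tested genes, beside 2.41% of the members.

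Signs changed for members near 0. Against wild type, 5xFAD with EGFP gave Rps19bp1 at 0.0019 with median-ratio scaling and -0.165 to 0.0792 with 1 library left out, and Rpl7l1 at -0.213 to 0.0251. In circRNA against EGFP, Rpl39 was 0.194 with the replicate block, 0.0337 with trends removed as well and -0.131 to 0.0407 with 1 library left out, and Rpl37a was -0.364 to 0.271. In circRNA against wild type, Rpl7l1 was -0.0614 (median ratio), -0.262 and -0.241 (same sum with and without members), -0.0685 (block and trends), -0.151 (voom) and -0.143 to 0.0944 with 1 library left out. Under the 2 same-sum scalings and the block with trends, Rps13 was -0.0275, -0.0146 and -0.0416, and Rps19bp1 was -0.0653, -0.0465 and -0.0208. In PKR knockout against wild type those 3 gave -0.102, -0.0807 and -0.0126 for Rps27l, and -0.0457, -0.0254 and -0.000308 for Rps19bp1. Rps27l was also -0.0123 with voom and -0.0156 to 0.225 with 1 library left out, and Rpl7l1 -0.231 to 0.00637. Recovered depth, 45.2 to 70.0 M fragments, limits low members such as Rps13 and Rpl27 most.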

Other observations

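Over all 13 libraries, the members differed in how far they varied. The coefficient of variation was lowest for Rpl7l1 (10.4%), Rps19bp1 (15.8%) and Rpl31 (17.1%), and highest for Rpl17 (50.3%) and Rpl21 (46.8%). These were chosen after their values were seen, and no test was made.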
